A study of Mus musculus with 78 samples.

Results

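The genes for the ionotropic and metabotropic glutamate receptors and for the auxiliary proteins that travel with them were followed through the cell types of the adult mouse retina. The members were taken by name: 33 genes were listed, comprising the subunits of the AMPA, kainate, NMDA and delta receptors, the metabotropic receptors apart from the one that defines ON bipolar cells, the TARP and cornichon partners of AMPA receptors, and the Neto partners of kainate receptors. The array table held 32 of them among 19301 genes, each with 1 probe set that carries its symbol alone. Grin1, the obligatory NMDA receptor subunit, was not analysed here. A gene was tested if its mean in at least 1 of the 26 sets of arrays exceeded the array median of 9.01, and 30 members were among the 15102 genes so tested. Grik2 and Grik3 stayed below that level in every set.

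Glutamate is the transmitter of photoreceptors and bipolar cells. AMPA and kainate receptors are channels that carry fast excitation to OFF bipolar, horizontal, amacrine and ganglion cells, NMDA receptors add a slower current that needs depolarisation, and metabotropic receptors act through G proteins, often on the releasing terminal. TARPs and cornichons bring AMPA receptors to the surface and slow their closing, and Neto proteins do the same for kainate receptors. Gria2 is the subunit whose edited form keeps calcium out of an AMPA receptor.

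Cells carrying a fluorescent protein were sorted from retinas of 22 transgenic lines, with 200 cells in a sample and a dissociation that took 15 min, and hybridised to Affymetrix Mouse Gene 1.0 ST arrays, in which a probe set reports the RNA of a gene as an intensity. There were 78 arrays in 26 sets of 3, which the study describes as biological replicates, and no treatment. Every mouse was adult, and the genetic background is given as a mixture of C57BL/6J with an FVB/N-Swiss Webster hybrid. According to the study the mice from 1 supplier were known to carry a recessive mutation that makes photoreceptors degenerate. A Cre driver crossed to the reporter Rosa26-LSL-RFP gave red cells in 9 lines. These were b2-Cre for rods, d4-Cre for cones, Gja10-Cre for horizontal cells, mGlur6-Cre for ON bipolar cells, Kcng4-CreERT2 for bipolar cells, Crh-Cre and a Cre knocked into Chat for amacrine cells, and Grik4-Cre and mOpn4-Cre for ganglion cells. A PV-Cre driver with the reporter ThyStopY marked the PV ganglion cells. The Chrnb4-EGFP line marked cones, Pcp2-EGFP rod bipolar cells and Lhx4-EGFP bipolar cells. Amacrine cells were also taken from the Arc-EGFP, Igfbp2-EGFP, Rgs5-EGFP, Chrna3-EGFP, Fbxo32-EGFP, Ier5-EGFP and 6430514L14Rik-EGFP lines, the last of which is labelled Fam81a. The Drd4-EGFP line marked ganglion cells, although its sort is labelled RFP, and Csf2rb2-EGFP marked microglia. Each name says which promoter drove the marker and not that all sorted cells are of 1 type, and a Cre reporter also keeps cells that expressed the driver earlier in life. Lines were grouped by their labelled class into 3 photoreceptor, 1 horizontal, 4 bipolar, 9 amacrine, 4 ganglion and 1 microglia lines, with b2 and Arc each measured in 3 sets.

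The arrays of a set correlated with a median r of 0.919 over the tested genes, and in 5 lines (Chrnb4, Lhx4, Crh, Chrna3 and Drd4) at least 1 pair of arrays fell below 0.8. Where a call was lost without these 5 lines, the value without them is given. A comparison of 1 of these lines itself could not be run without it. The summed intensity of 12 lists of marker genes followed the class labels: on the median array, rod markers reached 5353 in b2, cone markers 15370 and 15549 in Chrnb4 and d4, horizontal cell markers 2967 in Gja10, bipolar cell markers 3329 to 4351 in the 4 bipolar lines, amacrine cell markers 801 to 1469 in the 9 amacrine lines, ganglion cell markers 2454 to 3181 in the 4 ganglion lines, and microglia markers 8410 in Csf2rb2. Markers of other cells were also seen: cone markers at 1205 in Chrna3 and 499 in Lhx4, rod markers at 1293 and bipolar cell markers at 497 in Crh, and bipolar cell markers at 1219 and endothelial markers at 316 in Drd4. The horizontal line Gja10 had amacrine cell markers at 704 and ganglion cell markers at 620, and ChAT had horizontal cell markers at 564. Amacrine cell markers stood at 438 in Drd4 and 597 in the Grik4 line. The part of such cells in the member values of Gja10 and ChAT was not tested. In the Grik4 line, bipolar cell markers stood at 711, endothelial markers at 852, pigment epithelium markers at 845, microglia markers at 670 and pericyte markers at 271. Müller glia markers ranged from 337 to 3467 over the lines and astrocyte markers from 29.9 to 52.8. Intensities below 3.99, which made up 10.48% of the values, carry no reliable order, and intensities of different probe sets cannot be compared with each other.

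Across classes, the members that differed were mostly AMPA receptor subunits and their partners. A class was set against the unweighted mean of the other 5 over the 22 line means, and a gene was called at a limma adjusted p (Benjamini-Hochberg) below 0.05 and a log2 difference of at least 1. The horizontal and microglia classes are 1 line each, so their SE and p come from the spread between the lines of the other classes and assume that theirs is alike. In amacrine lines 5 of the 30 members were called higher, against 1.55% of all genes, and in photoreceptor lines 3 were called lower, against 4.32%. The bipolar and microglia classes each had 1 member called lower, where 1.15% and 3.64% of all genes were. The horizontal and ganglion classes each had 1 member called higher, against 1.05% and 3.26%. The median difference of the members was 0.27 in amacrine and 0.36 in ganglion lines, where that of all genes was -0.0035 and 0.01, and it was -0.13 in photoreceptor, -0.11 in bipolar, -0.12 in horizontal and -0.27 in microglia lines, where that of all genes lay between -0.06 and -0.02. Over the lines, members spanned a median of 1.72 on the log2 scale and all tested genes 1.67, and 14 of the 30 members (46.7%) spanned more than 2, against 39.1% of all genes.

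**Figure D1:**
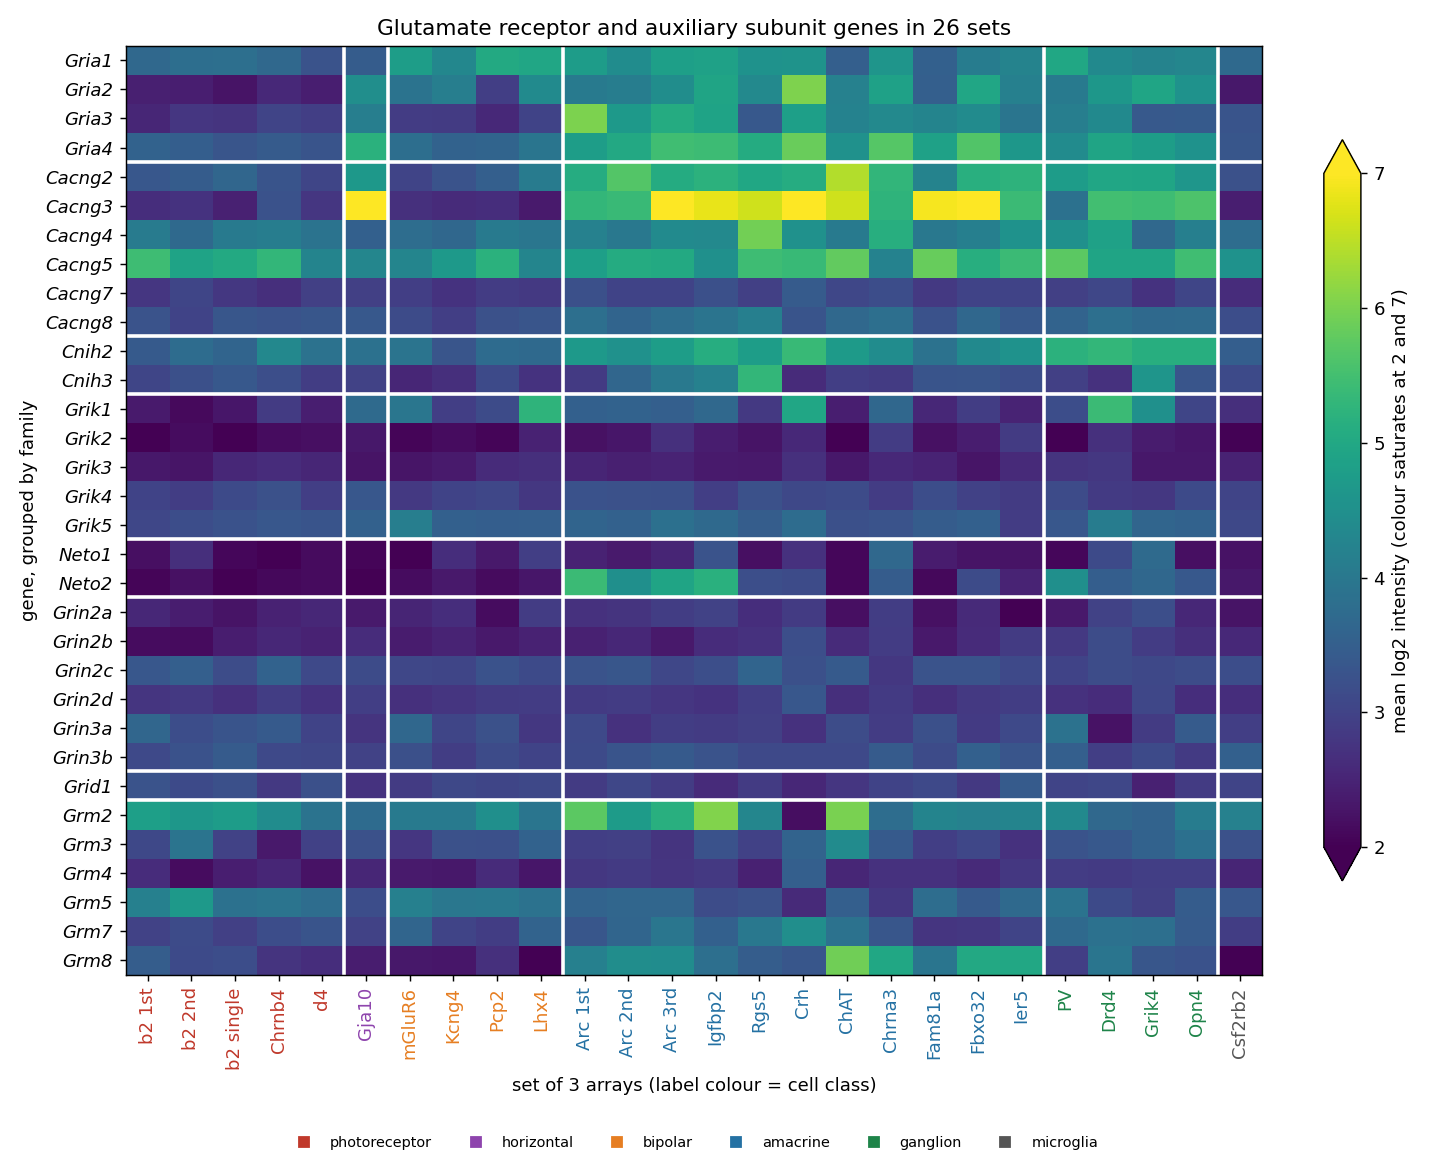
Mean log2 intensity of the 32 measured genes (rows, grouped by family) in the 26 sets of 3 arrays (columns, label colour by cell class); colours can be compared along a row only. Cacng3 is bright in the amacrine and horizontal sets and dark in the photoreceptor, bipolar and microglia sets.

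**Figure D2:**
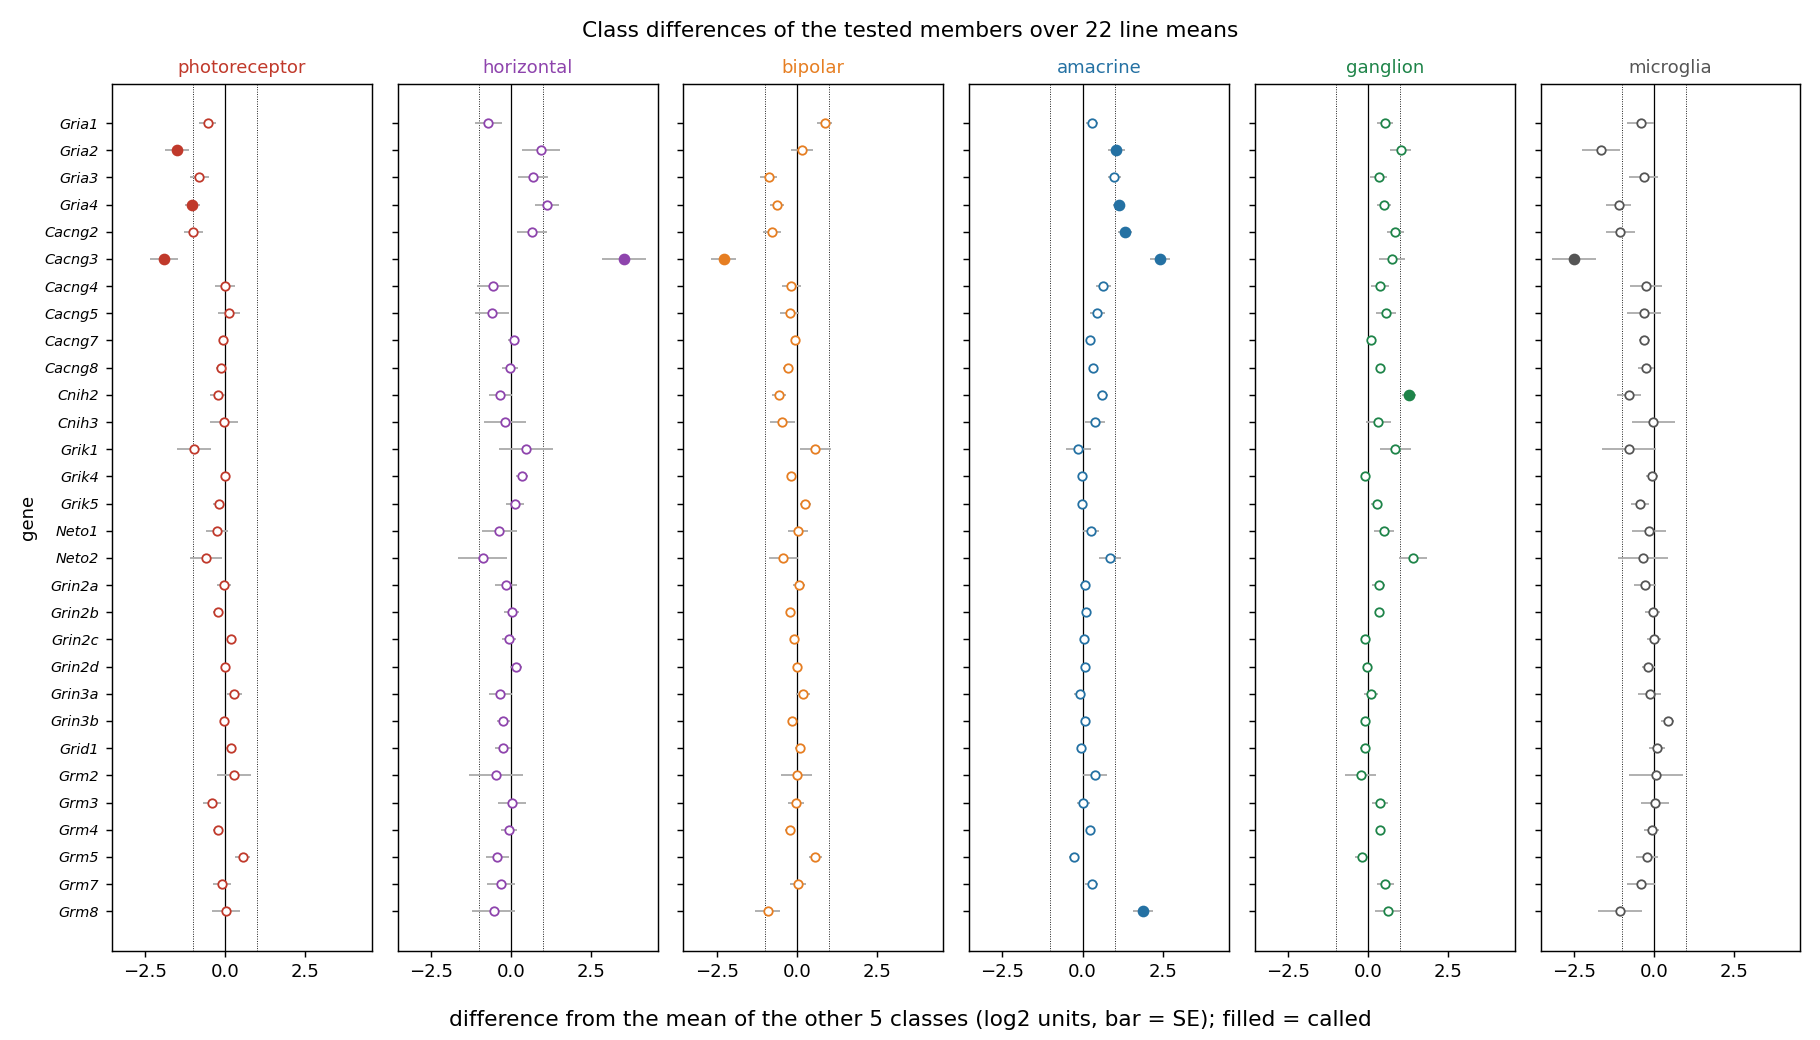
Log2 difference (horizontal axis, bar = SE) of each tested member (vertical axis) between a class and the mean of the other 5 classes, over 22 line means; filled points were called. Cacng3 is filled in 5 of the 6 panels, and the kainate, NMDA and delta receptor genes in none.

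The gene that separated the classes most was Cacng3, which codes for the TARP gamma-3. Its intensity was 171 in the horizontal line Gja10 (179, 182 and 154 on its arrays). In the 9 amacrine lines it ran from 37.9 in Chrna3 through a median of 100.1 to 196 in Crh. The ganglion lines gave 14.6 in PV, 43.8 in Grik4, 44.9 in Drd4 and 48.5 in Opn4. The photoreceptor lines b2, Chrnb4 and d4 stood at 6.12, 9.53 and 6.91, the bipolar lines mGluR6, Kcng4, Pcp2 and Lhx4 at 6.48, 6.13, 6.32 and 5.13, and the microglia line at 5.32. So all 48 arrays of the amacrine, ganglion and horizontal classes lay above all 30 arrays of the other classes, by a narrow margin, since the lowest of the former (PV) was 12.99 and the highest of the latter (Chrnb4) was 12.81. That grouping was made after the values were seen, and 0.0331% of all tested genes, 5 in number, split the arrays in this way. The difference of a class from the others was 3.52 (SE 0.68, limma adjusted p = 0.0086) for the horizontal line and 2.43 (SE 0.31, adjusted p = 4.7e-05) for amacrine lines. It was -2.28 (SE 0.39, adjusted p = 0.0015) for bipolar lines, -2.49 (SE 0.68, adjusted p = 0.020) for microglia (-2.06 without replicate 1, adjusted p = 0.084) and -1.92 (SE 0.44, adjusted p = 0.0079) for photoreceptor lines. The ganglion lines differed from the rest by 0.74 (SE 0.39, adjusted p = 0.23) and were not called.

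Cacng3 also varied with the set in which a line was measured. The Arc line gave 34.6, 38.8 and 46.8 in its first set and 58.7, 29.4 and 42.7 in its second, but 120, 133 and 141 in its last, whose label is batch 3. That set lay above both others without overlap, by 1.73 over the first (SE 0.35, limma adjusted p = 0.0070, 0.364% of genes called higher) and by 1.65 over the second (SE 0.35, adjusted p = 0.025, 0.0397% called higher). These were the only 2 of the 180 member tests between the repeated sets of Arc and b2 that were called, against 0.98% of the tests of all genes. Without any 1 replicate the first difference was not called (adjusted p from 0.090 to 0.31), nor was the other without replicate 2 or 3 (adjusted p = 0.9999 and 0.75). The amacrine sets of batch 1 gave 39.7, 42.5, 100.1 and 122 (Arc, Ier5, ChAT and Fam81a), those of batch 3 gave 131, 115, 99.8 and 196 (Arc, Igfbp2, Rgs5 and Crh), and Chrna3 of batch 2 gave 37.9. The labels give no batch for 9 arrays, those of d4, of Fbxo32 (160) and of the second Arc set (41.9). The fits with a batch term were run without d4 and Fbxo32 and took that Arc set as batch 2, so that their photoreceptor class is b2 and Chrnb4. Every line in them except Arc and b2 lies in a single batch. The batch terms thus come from the repeated sets of Arc and b2 alone, and that of batch 3 from Arc alone. The shift of Arc was therefore taken off the other lines of batch 3, and whether they share it was not tested. With batch removed from the line means, the horizontal and photoreceptor differences were 2.75 (adjusted p = 0.090) and -0.61 (adjusted p = 0.53), no longer called, and the amacrine difference was 2.71 (adjusted p = 1.0e-04). Among the lines of batch 3 alone the amacrine difference was 2.58 (adjusted p = 9.0e-04) and the horizontal one 3.06 (adjusted p = 0.0054). Without Gja10 the photoreceptor and microglia differences, -1.27 and -1.86, missed the threshold (adjusted p = 0.067 and 0.094).

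Cacng2 (stargazin), the first TARP to be described, had its highest level in the starburst line ChAT, at 91.8, 95.2 and 73.5. The other amacrine lines ran from 18.8 in Fam81a to 39.4 in Chrna3, around a median of all 9 of 37.3. The ganglion lines lay between 24.6 and 31.0 and the horizontal line at 25.4, while the photoreceptor lines lay between 8.29 and 11.3, the bipolar lines between 8.09 and 16.9, and microglia at 9.46. The mean of every amacrine line was thus above that of every photoreceptor, bipolar and microglia line. Single arrays overlapped, since Fam81a went down to 17.01 while Lhx4 reached 22.98 and microglia 21.4. The amacrine difference was 1.32 (SE 0.21, limma adjusted p = 3.9e-04). The photoreceptor difference of -0.9997 (SE 0.30, adjusted p = 0.035) fell just short of the size threshold. Within amacrine lines, the arrays of ChAT all lay above those of the others, by 1.37 (SE 0.25, adjusted p = 8.8e-05), and those of Fam81a (19.4, 19.99 and 17.01) all below, by -1.11 (SE 0.25, adjusted p = 0.0046). Without replicate 3 the Fam81a difference was -0.99 and was not called (adjusted p = 0.30). The other TARPs were less tied to class. Cacng4 (gamma-4) was called only in the Rgs5 line, at 66.3, 45.4 and 75.2 against line means of 16.1 to 34.9 in the other amacrine lines (difference 1.56, SE 0.27, adjusted p = 1.2e-04). The Rgs5 arrays overlapped with those of Ier5, which reached 53.4. Without replicate 1 Cacng4 was not called there (1.39, adjusted p = 0.072). Cacng5 (gamma-5), a TARP with atypical effects on gating, lay between 18.5 and 57.5 in the means of all lines. The lowest, Chrna3, was called 1.10 below the other amacrine lines (SE 0.19, adjusted p = 2.4e-05), with arrays that overlapped those of Igfbp2. That difference was -0.97 with batch as a term. Cacng7 and Cacng8 (gamma-7 and gamma-8) spanned 0.81 and 1.23 on the log2 scale over all lines, and neither was called in any class or line.

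Cacng2 and Gria4 were both called higher in amacrine lines, so the sequence upstream of these 2 genes is shown. Each stretch is the 250 bases before the transcription start in RefSeq, build GRCm38.p6, which is not the build of the arrays (mm9), and the capitals mark the letters CAGCTG, an E-box of the kind that basic helix-loop-helix factors bind.
Cacng2, chr15:78119281-78119530, minus strand: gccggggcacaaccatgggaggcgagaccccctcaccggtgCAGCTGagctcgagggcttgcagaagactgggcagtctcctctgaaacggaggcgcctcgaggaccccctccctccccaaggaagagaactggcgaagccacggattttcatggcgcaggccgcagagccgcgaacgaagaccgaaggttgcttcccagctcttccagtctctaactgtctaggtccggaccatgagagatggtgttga
Gria4, chr9:4796235-4796484, minus strand: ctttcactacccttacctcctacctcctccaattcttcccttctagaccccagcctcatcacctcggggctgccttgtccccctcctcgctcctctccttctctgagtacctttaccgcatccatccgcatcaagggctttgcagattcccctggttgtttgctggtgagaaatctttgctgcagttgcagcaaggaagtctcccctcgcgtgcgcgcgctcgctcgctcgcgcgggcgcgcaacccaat
The letters CAGCTG, which read the same on both strands, start at -209 relative to the Cacng2 start site and are not in the Gria4 window. They were searched after the expression values were known, together with the GC box GGGCGG, the TATA box TATAAA, the homeodomain core TAATTA and the Crx-type core TAATCC, all on both strands, and matches of different motifs were allowed to overlap. RefSeq windows of 20 members, 25 in all, were used here. CAGCTG was in 1 of the 25 and in 13.0% of all 32851 windows, GGGCGG in 14 and in 32.7%, TATAAA in 1 (Grin3b) and in 12.4%, TAATCC in 1 (Cacng8) and in 6.25%, and TAATTA in none and in 4.84%.

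The AMPA receptor subunits differed in which classes they marked. Gria4 had 36.4 in the horizontal line (33.9, 37.5 and 37.7), and 23.1 in ChAT through a median of 34.0 to 58.0 in Crh among amacrine lines. Ganglion lines gave 21.2 in PV, 30.1 in Drd4, 27.6 in Grik4 and 23.5 in Opn4. Photoreceptor lines stood at 10.99, 10.8 and 9.80, bipolar lines at 14.1, 11.9, 12.2 and 15.5, and microglia at 10.1, so the 2 sets of classes did not overlap in their line means. Their arrays did, with 14.97 as the lowest of the former and 20.83 as the highest of the latter. This grouping was taken from Cacng3. Here and for Cacng2, Gria2, Gria3, Grm8 and Grm5, line means that did not overlap were picked out after seeing the values. The share of all genes that do the same was not counted. The amacrine lines were called higher by 1.14 (SE 0.17, limma adjusted p = 2.5e-04) and the photoreceptor lines lower by 1.03 (difference -1.03, SE 0.24, adjusted p = 0.010). Gria4 stood 1.12 above the other classes in the horizontal line (SE 0.38, adjusted p = 0.25).

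Gria2 was at 5.17, 5.96 and 5.32 in the photoreceptor lines b2, Chrnb4 and d4 and at 4.99 in microglia. It was between 11.4 and 65.5 in the 9 amacrine lines (median 20.4), between 16.4 and 30.8 in the 4 ganglion lines, and at 22.3 in the horizontal line. The bipolar lines mGluR6, Kcng4 and Lhx4 gave 15.1, 17.6 and 20.97, but the rod bipolar line Pcp2 gave 8.51, 7.70 and 6.82. All other lines thus lay above the photoreceptor lines and microglia, with Pcp2 nearest to them. Photoreceptor lines were called lower (difference -1.50, SE 0.37, limma adjusted p = 0.014) and amacrine lines higher (1.05, SE 0.27, adjusted p = 0.018), and the ganglion difference of 1.01 was not called (adjusted p = 0.065). Among bipolar lines Pcp2 was below all arrays of the others (difference -1.21, SE 0.25, adjusted p = 0.0015), the only member called in that line, where 1.85% of genes were called lower. Among amacrine lines Crh was above all arrays of the others (50.1, 66.7 and 84.1, difference 1.64, SE 0.23, adjusted p = 1.9e-07), and Fam81a was below the mean of the others with overlapping arrays (12.8, 11.8 and 9.82, difference -1.20, SE 0.23, adjusted p = 6.0e-04). The Pcp2 call was lost with batch as a term (-0.97, adjusted p = 0.34) and without replicate 1 (adjusted p = 0.051). The Fam81a call was lost with batch as a term (-0.996, adjusted p = 0.076), in batch 1 alone (-0.63, adjusted p = 0.13), without replicate 3 (-1.05, adjusted p = 0.11) and without the lines of poorly correlated arrays (-0.96).

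Gria1 divided the classes in another way, while the line means of Gria3 split as those of Gria4 did. Gria1 was at 27.7, 19.8, 32.7 and 30.9 in the bipolar lines and between 9.75 and 13.7 in the photoreceptor lines, with 31.7, 20.7, 18.9 and 19.7 in the ganglion lines PV, Drd4, Grik4 and Opn4, 10.96 in the horizontal line and 13.1 in microglia. Amacrine lines spread from 11.4 in ChAT and 11.6 in Fam81a to 28.9 in Igfbp2 and overlapped both, and the ganglion lines overlapped the bipolar lines. The bipolar difference was 0.87 (SE 0.24, limma adjusted p = 0.041), below the size threshold. Gria3 was at 5.94 to 7.99 in bipolar and 6.47 to 8.15 in photoreceptor lines and at 9.84 in microglia. It was at 17.6 in the horizontal line, at 10.505 to 20.9 in ganglion lines and at 10.4 to 38.3 in amacrine lines. The margin between microglia and the lowest amacrine line was narrow. Arrays overlapped, with 7.78 as the lowest of the amacrine, ganglion and horizontal classes and 18.5 as the highest of the others. The amacrine difference, 0.997 (SE 0.21, adjusted p = 0.0040), missed the size threshold narrowly. Rgs5 stood below the mean of the other amacrine lines with arrays that overlapped those of Ier5 (10.4, 12.2 and 8.95, difference -1.14, SE 0.22, adjusted p = 8.0e-04). That call was lost with batch as a term (-0.91, adjusted p = 0.32) and without replicate 3 (-0.97, adjusted p = 0.11).

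**Figure D3:**
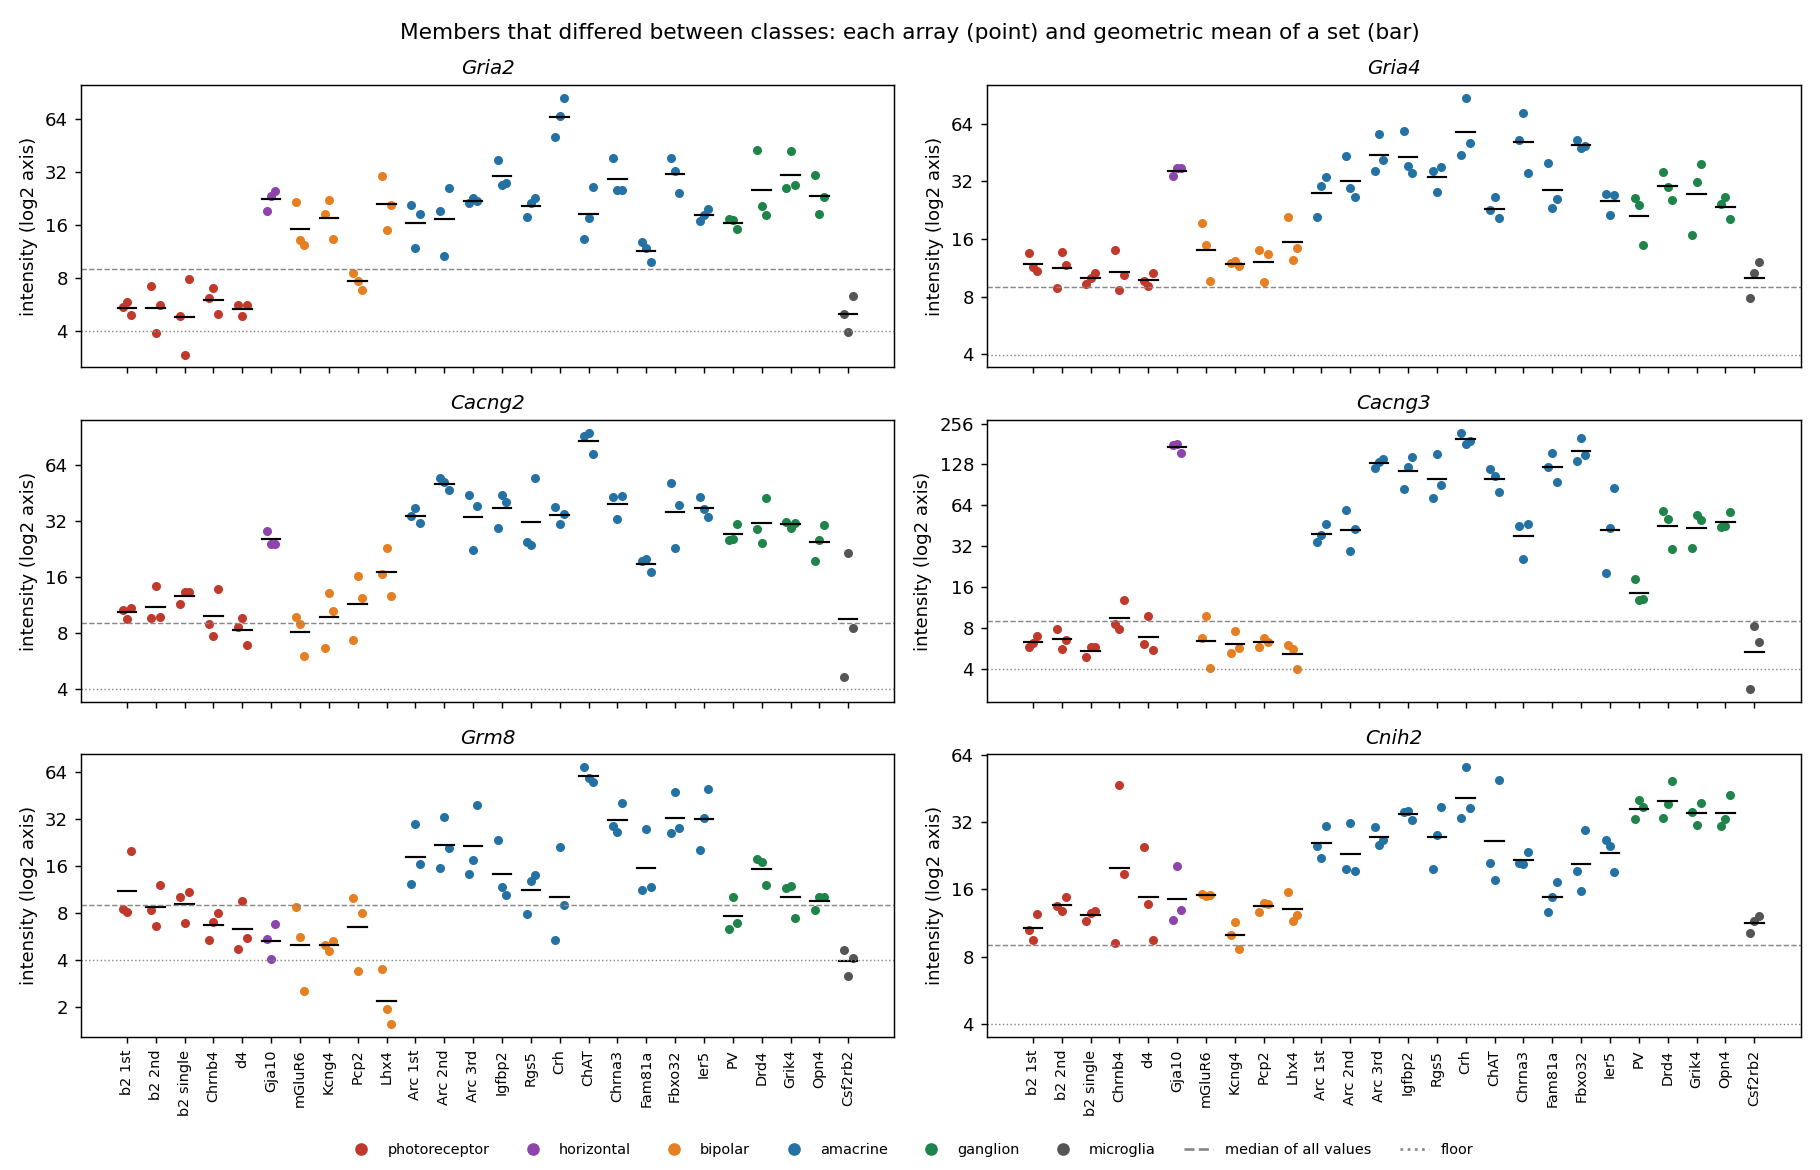
Intensity (log2 axis) of 6 members on each of the 78 arrays (points, coloured by class) with the geometric mean of each set (bars); the dashed line is the median of all values and the dotted line the floor of 3.99, where it falls on the axis. The 48 amacrine, ganglion and horizontal arrays of Cacng3 all lie above the other 30, and the 12 ganglion arrays of Cnih2 run from 30.96 to 49.03.

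Several of these class calls changed with batch or with a single line. The lines of batch 1 alone left no member called by limma in the 4 classes they could test, with 25 members above the filter, of which 8 of the amacrine comparison had an unadjusted p below 0.05. There the amacrine differences were 2.91 for Cacng3, 1.38 for Cacng2, 1.85 for Grm8, 0.87 for Gria4 and 0.82 for Gria2 (limma adjusted p from 0.096 to 0.46), and in batch 3 alone Cacng3, Gria4 and Grm8 stayed called while Cacng2 (0.99) and Gria2 (0.996, adjusted p = 0.14) did not. With batch removed, as estimated from the repeated sets of Arc and b2, no member of the photoreceptor class was called (4 at an unadjusted p below 0.05). Its Gria2 and Gria4 differences were then -1.20 and -0.56 (adjusted p = 0.081 and 0.24). Single lines also carried some calls: the amacrine Gria2 difference was 0.99 without Pcp2, 0.87 without Crh and 0.75 without Csf2rb2, the amacrine Gria4 difference 0.96 without Csf2rb2, and the photoreceptor differences -1.46 for Gria2 without b2 (adjusted p = 0.058) and -0.98 and -0.84 for Gria4 without d4 and without Gja10. Without the lines of poorly correlated arrays the amacrine Gria2 difference was 0.86 and the photoreceptor Gria4 difference -0.98, and the latter was -0.95 without replicate 2 and -0.92 with cyclic loess, all below the size threshold.

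Among the cornichons, Cnih2 stood out in ganglion lines. It gave 36.9 in PV, 39.9 in Drd4, 35.1 in Grik4 and 35.2 in Opn4, and the lowest ganglion array was at 30.96. Amacrine lines ran from 14.9 in Fam81a to 41.3 in Crh around a median of 25.3. Photoreceptor lines gave 12.2, 20.1 and 14.8, bipolar lines 9.96 to 15.1, the horizontal line 14.6 and microglia 11.3. By their means the ganglion lines were thus above every other line except Crh, with Igfbp2 close below at 34.8. Their arrays overlapped with those of other lines, which reached 46.9 in Chrnb4, 49.4 in ChAT and 56.5 in Crh. The ganglion difference was 1.27 (SE 0.21, limma adjusted p = 7.6e-04). The amacrine difference was 0.62 (SE 0.17, adjusted p = 0.026), below the size threshold. The other cornichon, Cnih3, was high in fewer lines: 86.9, 50.0 and 14.1 in Rgs5 and 35.1, 22.2 and 18.6 in the Grik4 line. The remaining lines lay between 5.79 and 18.3. Rgs5 was 2.06 above the other amacrine lines (SE 0.29, adjusted p = 1.1e-06), with its lowest array inside their range, and the Grik4 line was above all arrays of the other ganglion lines (1.61, SE 0.32, adjusted p = 5.2e-04), but not called without replicate 1 (1.18, adjusted p = 0.062). In Rgs5 the pericyte list, to which Rgs5 itself belongs, summed to 360 on the median array. There 3 of the 6 listed genes were above the array median. The part of pericytes in the Cnih3 and Cacng4 values was not tested.

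Of the kainate receptor genes, Grik1 was the only one called in a comparison of single lines, and none was called in a class. Grik1 (GluK1), the subunit through which several OFF bipolar types are known to receive cone input, was at 83.5, 29.6 and 22.2 in Lhx4, 15.1, 15.6 and 16.1 in mGluR6, 8.09, 8.0004 and 10.8 in Pcp2, and 6.67, 9.17 and 7.32 in Kcng4. Every Lhx4 array was above every other bipolar array, and the difference was 1.90 (SE 0.32, limma adjusted p = 5.4e-05). Kcng4 was called 1.18 lower than the other bipolar lines (SE 0.32, adjusted p = 0.043, 0.497% of genes called lower). Without the lines of poorly correlated arrays, of which Lhx4 is 1, that difference was -0.62 (adjusted p = 0.17), and it was not called with batch as a term (adjusted p = 0.23) or without any 1 replicate (adjusted p from 0.21 to 0.44). In the Lhx4 line 2 of 30 members were called, Grik1 and Grm8, where 2.79% of all genes were.

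In the ganglion class Grik1 gave 103, 32.5 and 22.8 in Drd4 and 15.8, 32.9 and 22.6 in the Grik4 line, but 7.93, 9.39 and 10.05 in PV and 10.7, 8.81 and 6.08 in Opn4. The Drd4 and Grik4 arrays overlapped with each other and lay above those of PV and Opn4. Drd4 was 1.82 above the other ganglion lines (SE 0.32, limma adjusted p = 6.4e-05), Opn4 1.31 below (SE 0.32, adjusted p = 0.017) and PV 1.14 below (SE 0.32, adjusted p = 0.012). Without the lines of poorly correlated arrays, of which Drd4 is 1, the last 2 differences were -0.79 and -0.60 and were not called (adjusted p = 0.071 and 0.078). With batch as a term they were -1.29 and -1.21 (adjusted p = 0.058 and 0.36), and the calls were also lost without replicate 2 or 3 in Opn4 (adjusted p = 0.29 and 0.54) and without any 1 replicate in PV (adjusted p from 0.053 to 0.14). Bipolar cell markers moved with Grik1 here: all 8 measured were above the array median in Drd4, where their sum ranged from 1083 to 3287, and 7 of 8 in the Grik4 line, where it ranged from 334 to 1038, against 4 of 8 in PV and in Opn4, where it ranged from 106 to 139 and from 101 to 423. All 9 Müller glia markers were above the median in Drd4 and in the Grik4 line (sums of 2080 to 8107 and 1311 to 4136) and 7 of 9 in PV and Opn4 (422 to 658 and 406 to 2017). Endothelial markers above it were 5 and 6 of 8, against 0 and 2 (sums of 157 to 638 and 521 to 1059, against 52.3 to 53.4 and 52.5 to 169), and pericyte markers 4 and 3 of 6, against 1 and 2 (sums of 96.4 to 271 and 210 to 339, against 42.9 to 55.7 and 42.6 to 71.9). The part of these cells in the result was not tested. Among amacrine lines Crh was the high line for Grik1 (17.5, 67.2 and 25.3, difference 1.94, SE 0.29, adjusted p = 5.1e-07), with arrays that overlapped those of Chrna3, and bipolar cell markers there summed to between 196 and 1652 over the arrays. Their part in that result was not tested either.

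The Grik4 gene codes for GluK4, a high-affinity kainate subunit, and its promoter drives the Cre of the Grik4 line. Its probe set gave 9.08, 6.87 and 5.61 in that line, the lowest mean of the 22, although Lhx4 at 7.06 and mGluR6 at 7.08 were close to it, and up to 10.3 in Gja10. The arrays overlapped with those of the rest, and the difference from the other 21 lines was -0.23 (SE 0.13, limma adjusted p = 0.27). Higher in the Grik4 line than in the mean of the other 21 were Cnih3 by 1.43 (SE 0.28, adjusted p = 1.4e-04), Neto1 by 1.29 (SE 0.24, adjusted p = 7.7e-05) and Grik1 by 1.18 (SE 0.28, adjusted p = 0.0017), where 4.09% of all genes were called higher. Cnih3 was 0.98 higher with batch as a term, and Grik1 was not called without replicate 2 or 3 (0.92 and 1.12, adjusted p = 0.19 and 0.070). Markers of other cells were high in that line too: 6 of 8 endothelial markers were above the median, with a sum on the median array of 852 against 50.7 to 316 in the other lines, as were all 6 pigment epithelium markers (845 against 40.9 to 149.7), all 9 microglia markers (670 against 64.0 to 192 outside Csf2rb2) and all 9 Müller glia markers (1795 against 337 to 3467). Their part in these differences was not tested. Grik5 (GluK5), the other high-affinity subunit, was above the median in 19 lines and reached 18.3, 25.4 and 11.9 in mGluR6 and 26.4, 16.1 and 12.04 in Drd4, and it was not called in any line. Grik2 lay between 2.97 and 10.8 on all arrays and Grik3 between 3.85 and 9.54.

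Of the kainate auxiliary genes, Neto2 was near the floor in most classes. All photoreceptor, bipolar, horizontal and microglia lines were between 3.62 and 5.10, and so were ChAT and Fam81a at 4.26 and 4.32. The ganglion lines gave 22.4, 11.2, 12.7 and 10.4. Igfbp2 gave 68.4, 32.3 and 21.5, and the Arc sets gave 26.8, 57.2 and 50.7, then 46.0, 7.31 and 34.3, then 8.79, 64.2 and 49.8. Igfbp2 and Arc were therefore the highest lines although single arrays of both fell among the other lines. They exceeded the other amacrine lines by 2.10 (SE 0.40, limma adjusted p = 3.4e-04) and 1.84 (SE 0.25, adjusted p = 2.6e-07), while ChAT and Fam81a were below by 1.37 and 1.35 (adjusted p = 0.029 and 0.046), with means close to the floor. Those 2 calls were lost with batch as a term (adjusted p = 0.072 and 0.14) and without any 1 replicate (adjusted p from 0.061 to 0.48), and that of Fam81a also with no filter (0.055), with the replicate block (adjusted p = 0.051) and without the lines of poorly correlated arrays (adjusted p = 0.064). The Igfbp2 call was lost without replicate 1 (1.60, adjusted p = 0.081). The ganglion difference of 1.39 was not called (SE 0.45, adjusted p = 0.055). Within batch 3 alone the Arc and Igfbp2 differences were 1.08 and 1.42 and were not called (adjusted p = 0.59 and 0.38). Neto1 was above the median in 3 lines only: the Grik4 line (7.79, 18.3 and 16.1), Chrna3 (10.6, 19.6 and 10.2) and Igfbp2 (9.23, 9.96 and 10.1). Chrna3 exceeded the other amacrine lines by 1.22 (SE 0.25, adjusted p = 2.7e-04, and 0.98 without replicate 2), with arrays that overlapped those of Crh. The Grik4 line exceeded the other ganglion lines by 1.25 (SE 0.27, adjusted p = 0.0025). The arrays of the Grik4 line overlapped with those of Drd4, and without replicate 2 or 3 its difference was 1.03 or 0.91 and was not called (adjusted p = 0.22 and 0.36), nor was it within batch 3 alone (1.05, adjusted p = 0.14).

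**Figure D4:**
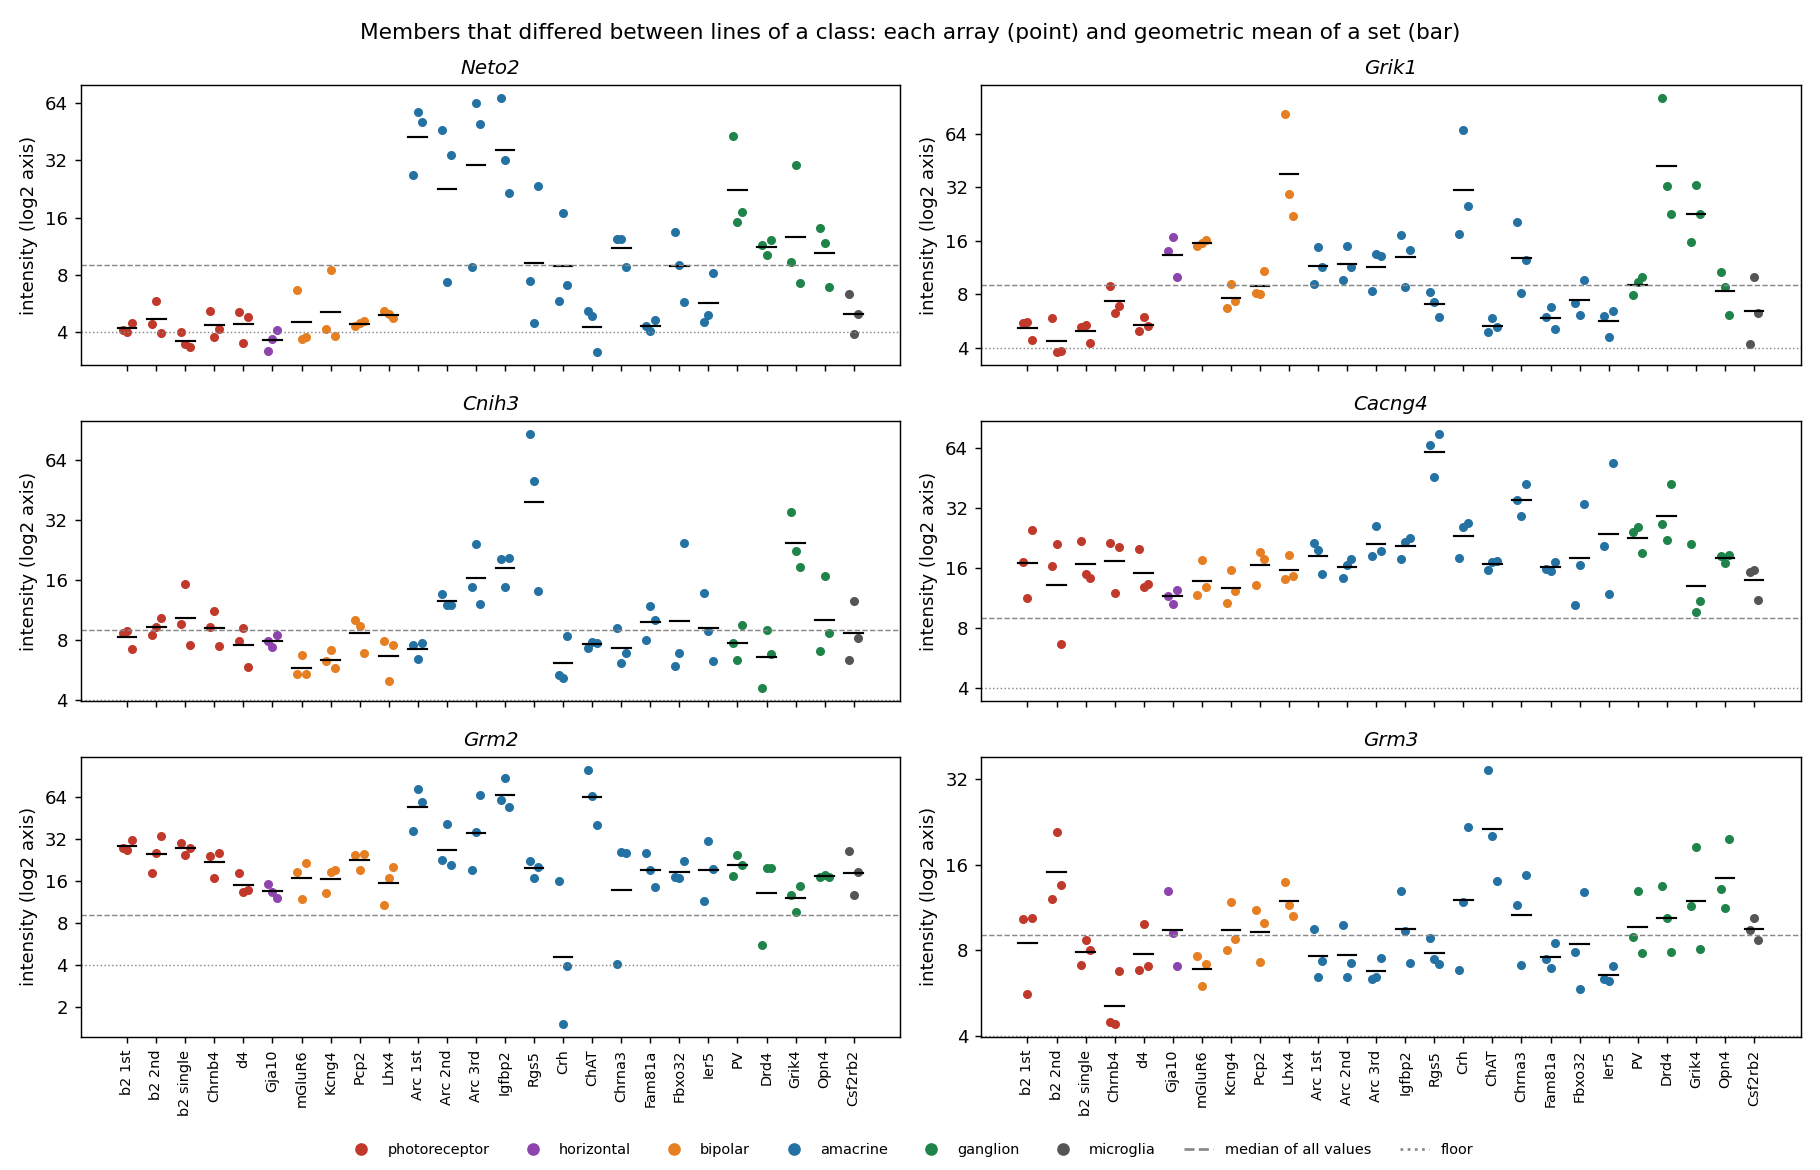
Intensity (log2 axis) of 6 members on each of the 78 arrays (points, coloured by class) with the geometric mean of each set (bars); the dashed line is the median of all values and the dotted line the floor of 3.99, where it falls on the axis. Neto2 is high in the 3 Arc sets and Igfbp2, Grik1 in Lhx4, Crh, Drd4 and Grik4, and Cnih3 and Cacng4 in Rgs5.

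The NMDA receptor genes showed little variation, at low intensity. Over the lines their median span was 0.89 on the log2 scale, the narrowest of the families with more than 1 member, and none was called in any class. Most of their line means were below the array median and none exceeded 14.7 (Grin3a in PV). A signal this low may itself limit the span, and equally dim genes were not set beside them. Grin2a and Grin2b, the major glutamate-binding subunits of the forebrain, had line means above the median in 1 line each, with 9.20 in the Grik4 line and 9.24 in Crh. Grin2c and Grin2d ran from 6.99 to 12.3 and from 6.17 to 10.3, and Grin3b, a glycine-binding subunit, from 7.23 to 11.6. Grin3a, the other glycine-binding subunit of that pair, was the exception among single lines: PV gave 11.6, 12.4 and 22.3 and Drd4 4.54, 5.19 and 4.43. PV was 1.03 above the other ganglion lines (SE 0.22, limma adjusted p = 9.5e-04) and Drd4 1.16 below (SE 0.22, adjusted p = 2.4e-04), and in both cases arrays overlapped with another line. The PV call was lost with batch as a term (0.83, adjusted p = 0.37), without replicate 3 (0.76, adjusted p = 0.093) and without the lines of poorly correlated arrays (0.73). The Drd4 difference fell below the size threshold without replicate 3 (-0.98) and within batch 3 alone (-0.92). Grid1, a delta receptor subunit that binds secreted synaptic organisers, lay between 5.49 and 10.9 and was not called anywhere.

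Among the metabotropic receptors, Grm8, a presynaptic group III receptor, was called higher in amacrine lines. It ran from 10.1 in Crh through a median of 20.5 to 60.5 in ChAT among amacrine lines. Ganglion lines gave 7.64 in PV, 15.3 in Drd4, 10.1 in Grik4 and 9.52 in Opn4, photoreceptor lines 9.59, 6.70 and 6.28, bipolar lines 5.004, 4.94, 6.46 and 2.19, the horizontal line 5.31 and microglia 3.93. Amacrine and ganglion lines overlapped, and the other classes lay below the lowest amacrine line. The amacrine difference was 1.88 (SE 0.31, limma adjusted p = 4.9e-04). ChAT gave 68.8, 58.6 and 55.0, above all other amacrine arrays, by 1.67 (SE 0.33, adjusted p = 3.1e-04). Crh was below the other amacrine lines by 1.23 (SE 0.33, adjusted p = 0.0021) with arrays of 5.35, 21.3 and 9.03, and was not called within batch 3 alone (-0.58, adjusted p = 0.19) or without replicate 1 (-0.88, adjusted p = 0.054). In Lhx4 the arrays were at 3.51, 1.92 and 1.55, all under the floor, and the called difference of -1.31 from the other bipolar lines (adjusted p = 0.022) was -0.54 with values raised to the floor (adjusted p = 0.40).

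Grm2 and Grm3 code for the group II receptors, of which mGluR2 is a known receptor of starburst amacrine cells. Grm2 gave 100.4, 64.5 and 40.3 in ChAT, 61.1, 87.1 and 54.5 in Igfbp2, and 36.3, 72.7 and 58.8 in the first Arc set, 22.4, 40.9 and 20.7 in the second and 19.1, 35.8 and 65.5 in the last, and 15.8, 1.495 and 3.92 in Crh. The ChAT and Igfbp2 arrays overlapped with those of Arc and lay above those of the other amacrine lines, and 2 Crh arrays were at or below the floor. ChAT was 1.72 higher than the other amacrine lines (SE 0.38, limma adjusted p = 0.0017), Igfbp2 1.78 higher (SE 0.38, adjusted p = 0.0020), and Crh lower, by -2.10 with values raised to the floor, where it was called as well, and by -2.58 without (SE 0.38, adjusted p = 4.2e-07). The ChAT call was lost with batch as a term (1.45, adjusted p = 0.11) and without replicate 2 (adjusted p = 0.059), and that of Igfbp2 without replicate 2 or 3 (adjusted p = 0.19 and 0.10). Grm3 was highest in ChAT, at 34.6, 20.2 and 14.0 (difference 1.32, SE 0.24, adjusted p = 8.4e-05), with arrays that overlapped those of Crh and Chrna3. Without replicate 1 the Grm3 difference was 0.97 and was not called (adjusted p = 0.071). Grm7, a low-affinity presynaptic receptor, was highest in Crh, at 20.8, 26.7 and 19.3, with arrays that overlapped those of Rgs5. The Crh difference was 1.09 (SE 0.16, adjusted p = 6.0e-07), and it was 0.63 within batch 3 alone, 0.67 with batch as a term and 0.96 without replicate 2. Grm5, a group I receptor coupled to calcium release, gave 13.9 to 18.9 in photoreceptor lines, 14.8 to 18.2 in bipolar lines and 6.04 to 13.8 in amacrine lines, so that amacrine lines lay below every bipolar and photoreceptor line, the nearest being Fam81a at 13.8 and d4 at 13.9. It was not called in any class. Grm4, a group III receptor, reached 10.49, 10.53 and 13.2 in Crh, and its mean was at or under 7.59 in every other line. Single arrays overlapped with those of Crh, up to 11.3 in the second Arc set and 10.96 in Drd4.

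Single lines differed most within the amacrine class. There 24 of 270 member tests were called (8.89%), 14 higher and 10 lower over 14 members, against 4.07% of the tests of all genes. The bipolar lines had 4 of 120 (3.33% against 2.26%) and the ganglion lines 8 of 120 (6.67% against 3.73%). The 3 photoreceptor lines had 0 of 90, against 7.85% of all genes in limma, with 5 members in b2, 5 in Chrnb4 and 2 in d4 at an unadjusted p below 0.05. The Crh line had 6 members called, but 18.3% of all its genes were, with rod markers at 1293 on the median array. ChAT had 5 members called against 2.77%, Fam81a 3 lower against 0.967%, Rgs5 3 against 0.775%, Igfbp2 2 higher against 0.993%, Arc 1 higher against 0.755% and Chrna3 3 against 7.87%. Ier5 had 1 lower against 1.03%, which was Cacng3 at 20.4, 43.6 and 86.4 (difference -1.24, SE 0.26, adjusted p = 0.0022; adjusted p = 0.19 and 0.11 without replicates 1 and 2). In ganglion lines PV had 3 against 6.05%, Drd4 2 against 6.34%, the Grik4 line 2 higher against 1.49% and Opn4 1 lower against 0.258%. The PV difference for Cacng3 was -1.64 (SE 0.29, adjusted p = 6.7e-05), with arrays of 18.4, 12.99 and 13.1 that lay below all others of the class. Cacng3 was also called in a further 2 amacrine lines, 1.25 for Crh (adjusted p = 1.4e-04) and -1.42 for Chrna3 (adjusted p = 6.7e-05). With batch as a term the 4 line differences of Cacng3 were 0.26 for Crh, -0.52 for Chrna3, -0.34 for Ier5 and 0.04 for PV, and none was called (adjusted p from 0.42 to 0.99). Line differences whose arrays overlapped with other lines of the class were picked for description after their values were seen.

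Genes that anchor, assemble or act downstream of the receptors were counted from 3 lists. Of all tested genes, 1.55% were called higher in amacrine lines, 3.26% higher in ganglion lines and 4.32% lower in photoreceptor lines. The share for microglia is given with the classes above. Of 23 tested scaffold genes, 2 were called higher in amacrine lines, Homer2, which ties group I metabotropic receptors to their calcium stores (2.30, SE 0.47, limma adjusted p = 0.0032), and Lin7a, a PDZ adaptor (1.26, SE 0.21, adjusted p = 4.4e-04). Homer2 (1.99) and Lin7b (1.22) were called higher in ganglion lines, Lin7a in bipolar lines (1.36, adjusted p = 0.0033, against 1.52% of all genes), and Homer2 (-2.55) and Lin7a (-1.11) were called lower in photoreceptor lines. Microglia had Lin7a lower (-2.27), and the horizontal line none of the 23. Of 19 tested assembly and extracellular partner genes, Elfn1, the protein on rods and cones that recruits the ON bipolar receptor, was called higher in photoreceptor lines (2.89, SE 0.70, adjusted p = 0.012, against 2.03% of all genes), and Porcn (-1.98) and Cpt1c (-1.42) were lower in microglia. Of 13 tested kinase, phosphatase and signalling genes, Fyn was higher in ganglion lines (1.04) and lower in photoreceptor lines (-1.49) and microglia (-1.84), Prkcb was lower in photoreceptor lines (-1.79), and Plcb4 was lower in microglia (-1.67). The median differences of the 3 lists lay between -0.26 and 0.28 in every class but microglia, where they were -0.09, -0.49 and -0.65.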

How the data were processed

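The values deposited for 78 arrays of sorted retinal cells are intensities on a linear scale (0.0238 to 5770), 1 for each probe set. RMA, oligo, R 2.11.1 and the build mm9 appear in the submitters' processing notes, with no settings. The sorted values of all columns were identical, as quantile normalization gives, and log2 was taken because the plan assumed log2 values. Members were matched by a single gene symbol. Other genes were represented by their brightest probe set on average. Fits used limma 3.58.1 in R 4.3.3 with a variance trend, and Benjamini-Hochberg adjustment ran over all 15102 genes tested. Class fits used 22 line means (Arc and b2 averaged over their 3 sets). Line fits used all 78 arrays with 1 mean per set, and compared a line with the averaged other lines of that class. Their SE and p come from the spread between arrays within sets, pooled over all sets, and assume that it is alike. For Grik1 it was not, with a log2 SD of 1.14 in Drd4, 1.00 in Crh and 1.01 in Lhx4, against 0.18 in PV. Spread between repeated sets or batches of a line is not part of that SE. The fits were tested on simulated data. The number of arrays limits the precision. The members and lists were chosen with earlier results of these data known. Members called were described in full up to 5 per class and direction, and up to 3 per line where arrays did not overlap. Alternatives were no filter on dim genes, cyclic loess, the mean of probe sets, values raised to the floor of 3.99, batch, the replicate block, line as a random block, and leaving out replicates, lines and the poorly correlated lines. The last of these and the batches were added for single lines after seeing the data. The upstream window of 1 member is not reported here and was left out of the members' motif counts. Figures used Python 3.11.15 and matplotlib 3.10.9.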

Additional observations from a re-analysis of the deposited data

Results flagged for a closer look

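Over 90 groups of 4 to 10 line means, 7 had a line whose gap to its nearest neighbour was large for the range of its group by Dixon's 95% criterion. By that criterion about 1 group in 20 is flagged by chance alone. Grik1 was at 31.0 in the amacrine line Crh, where the next line, Igfbp2, was at 12.96. Grin2d was at 10.3 and Grm4 at 11.4 in Crh too, with Rgs5 at 7.62 and Igfbp2 at 7.16 next. Cacng2 was at 86.3 in the amacrine line ChAT, with Chrna3 at 39.4 next. Among bipolar lines Grik5 was at 17.7 in mGluR6, with Kcng4 at 11.6 next, and Grm4 was at 6.17 in Pcp2, with mGluR6 at 5.11 next, both below the array median. Cacng3 was lowest in the ganglion line PV, at 14.6, with Grik4 at 43.8 next. Crh has arrays that correlate poorly and carries rod markers at 1293 on its median array, whose part in these values was not tested.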

How the results depend on the processing

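The report names 53 member differences, and 9 were called under every alternative run for them: Cacng2 and Grm8 in ChAT, Cnih3 in Rgs5, Gria2, Grik1 and Grm2 in Crh, Grik1 in Drd4 and in Lhx4, and Neto1 in the Grik4 line against all others. Not all differences faced the same alternatives. Crh, Drd4 and Lhx4 are themselves poorly correlated lines with markers of other cells, so their differences were not run without such lines. The SE behind their calls is pooled over all sets and does not come from the arrays of these lines alone. Only class differences were run with each line left out in turn. Of 826 values under alternatives, 714 kept their call, 111 lost it in the same direction and 1 reversed, Cacng3 in PV with batch as a term (0.0398). In the fits with a batch term, batch was estimated from the repeated sets of Arc and b2 alone. With batch removed the photoreceptor class went from 3 called members to 0, the horizontal from 1 to 0 and the microglia from 1 to 3. In batch 1 alone the photoreceptor, bipolar, amacrine and ganglion classes had 0, and in batch 3 alone the amacrine class had 3 and the microglia 4. With line as a random block the horizontal class had 2, the ganglion 3 and the microglia 3. Without the poorly correlated lines the ganglion class had 2, the microglia 3, and single bipolar and ganglion lines 1 and 5 calls. With batch as a term these had 2 and 5, and cyclic loess gave the single photoreceptor lines 1. Leaving out replicates or lines in turn gave 1 to 4 members for the photoreceptor class, 1 for the horizontal, 1 to 2 for the bipolar, 3 to 6 for the amacrine, 1 to 4 for the ganglion and 0 to 3 for the microglia. Leaving out replicates gave single lines 0 to 2 calls in photoreceptor, 1 to 2 in bipolar, 18 to 20 in amacrine and 3 to 7 in ganglion lines, and 0 to 1 between repeated sets. Replicate numbers did not pair the arrays: deviations of equal numbers correlated with a mean r of 2.1e-04. With the replicate block, single lines had 0 calls in photoreceptor, 4 in bipolar, 23 in amacrine and 8 in ganglion lines, repeated sets had 2, and Grik4 in its own line stayed at -0.23 (adjusted p = 0.23). Cyclic loess moved the median of all genes by -0.15 in the Crh line, and turned the genes called higher and lower from 234 and 185 to 173 and 211 in amacrine, from 492 and 147 to 389 and 203 in ganglion, and from 858 and 549 to 983 and 359 in microglia lines.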
